A study of Mus musculus with 24 samples.

Results

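The genes described here are the enzymes of cholesterol synthesis together with the transcription factor SREBP2 (gene Srebf2), its partners in the membrane and a few further genes that it controls. They were named as a list of 27 symbols, and all 27 were found among the 22429 genes of the liver footprint table. Of these, 26 passed the filter on low counts and were tested beside 12211 genes in all; Npc1l1 did not pass. The list falls into 5 roles: 7 enzymes of the mevalonate arm, 3 enzymes from squalene to lanosterol, 8 enzymes from lanosterol to cholesterol, 4 genes of SREBP2 and its retention, and 5 other SREBP2 targets or sterol handling genes.

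Ribosome footprints were sequenced from whole livers of 24 male F1 hybrid C57BL6J/FVBN mice, 4 in each of 6 groups. Ercc1 +/+ wild types were fed ad libitum to 16 weeks (fed wild types) or 104 weeks (old wild types), or were kept on dietary restriction to 16 weeks. Ercc1 d/- mutants, which have 1 null and 1 truncated allele of this DNA repair gene in the whole body and age early, were fed ad libitum to 7 or 16 weeks or were restricted to 16 weeks. Restriction began in week 7 and reached 30% from week 9; food was given just before dark, and on the last day none was given before collection. All comparisons with fed wild types share the same 4 libraries. Livers are mixed tissue, so fewer cells of a type and less RNA per cell cannot be told apart. The mRNA libraries of these livers were not analysed here, so a change in footprints is not split into mRNA level and translation.

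SREBP2 is made as a protein of the endoplasmic reticulum membrane, where SCAP binds it. When membrane sterol is low, SCAP escorts SREBP2 to the Golgi, proteases release its amino-terminal part, and that part enters the nucleus and activates the genes of cholesterol synthesis; when sterol is high, INSIG1 and INSIG2 hold SCAP back. In liver, Insig1 is itself an SREBP target, while a liver transcript of Insig2 is lowered by insulin. SREBPs bind promoters weakly alone and commonly act with NF-Y, a factor that binds CCAAT boxes.

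The promoters show which members carry these letters. RefSeq promoter windows on GRCm38.p6, running from 250 bases before to 50 bases after each listed start, were found for 22 of the 27 members. Fdps, Fdft1, Sqle, Soat2 and Stard4 had no window and were not searched. Both strands were searched. The SREBP motif TCACNCCAC was present in 2 of 22 members (9.09%), Hmgcs1 and Aldoc, and in 1.44% of the 27025 genes with a window. Its looser core CACNCCA, which lies inside the longer motif, was present in 7 of 22 (31.8%) and in 20.6% of all genes. The NF-Y box CCAAT was present in 19 of 22 (86.4%), all but Aldoc, Acat2 and Scap, and in 41.1% of all genes. At the most upstream start, 10 of 22 members held more than 1 NF-Y box. Of all genes, 13.3% held more than 1 in any of their windows, a wider search than for the members. The 180 bases before the start are printed for Hmgcs1 and Aldoc, which hold the SREBP motif, and for 5 further members with NF-Y boxes whose footprints differed in or between the comparisons below. Capitals mark TCACNCCAC and either CCAAT or its complement ATTGG; each sequence runs 5′ to 3′ on the gene's strand.
Hmgcs1, chr13:119690171-119690350, plus strand: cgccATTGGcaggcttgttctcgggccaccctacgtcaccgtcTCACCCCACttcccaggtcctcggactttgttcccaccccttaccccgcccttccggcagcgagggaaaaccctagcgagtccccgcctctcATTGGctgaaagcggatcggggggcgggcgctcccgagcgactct
Aldoc, chr11:78322893-78323072, plus strand: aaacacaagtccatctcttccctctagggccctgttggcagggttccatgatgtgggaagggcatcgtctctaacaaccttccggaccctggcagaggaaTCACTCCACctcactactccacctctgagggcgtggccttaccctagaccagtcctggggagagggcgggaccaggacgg
Mvk, chr5:114444089-114444268, plus strand: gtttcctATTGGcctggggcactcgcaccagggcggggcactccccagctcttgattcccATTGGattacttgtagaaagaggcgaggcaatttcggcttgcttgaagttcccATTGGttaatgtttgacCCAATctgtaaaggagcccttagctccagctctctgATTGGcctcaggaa
Idi1, chr13:8885426-8885605, plus strand: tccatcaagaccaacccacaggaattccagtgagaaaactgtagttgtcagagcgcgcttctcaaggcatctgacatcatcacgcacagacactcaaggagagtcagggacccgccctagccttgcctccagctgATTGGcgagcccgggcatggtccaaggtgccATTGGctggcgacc
Cyp51, chr5:4104698-4104877, minus strand: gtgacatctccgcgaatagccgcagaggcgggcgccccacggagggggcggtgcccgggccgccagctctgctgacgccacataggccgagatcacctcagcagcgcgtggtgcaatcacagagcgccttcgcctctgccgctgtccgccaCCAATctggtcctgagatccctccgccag
Msmo1, chr8:64733579-64733758, minus strand: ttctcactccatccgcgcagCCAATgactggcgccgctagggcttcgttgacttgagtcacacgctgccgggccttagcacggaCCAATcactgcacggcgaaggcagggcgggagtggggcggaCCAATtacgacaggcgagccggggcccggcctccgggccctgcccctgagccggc
Insig2, chr1:121332590-121332769, minus strand: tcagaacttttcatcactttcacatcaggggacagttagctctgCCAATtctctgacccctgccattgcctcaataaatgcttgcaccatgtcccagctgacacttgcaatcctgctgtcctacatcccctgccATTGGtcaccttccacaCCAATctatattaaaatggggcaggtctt
Mvk held 5 NF-Y boxes in this stretch, Msmo1 and Insig2 held 3 each, Hmgcs1 and Idi1 held 2 each, and Cyp51 held 1.

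**Figure D1:**
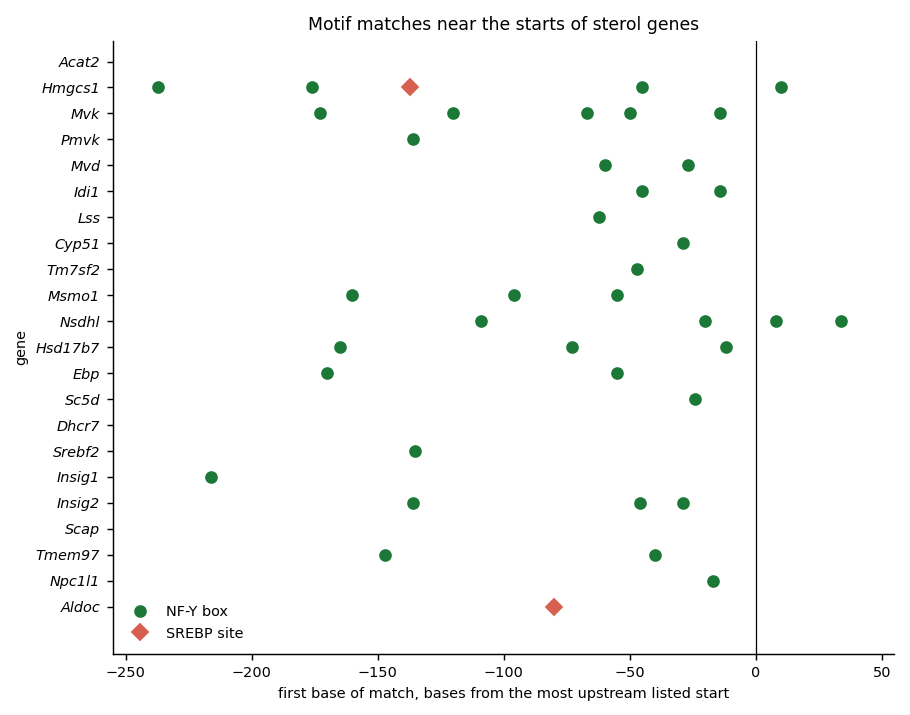
Positions of NF-Y boxes (green circles) and of the SREBP motif TCACNCCAC (red diamonds) in the 22 members with a promoter window; the x axis gives the first base of the match relative to the most upstream listed start. SREBP motif matches lie at -137 in Hmgcs1 and -80 in Aldoc, and most NF-Y boxes lie before the start.

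The libraries were deep, with 13366558 to 27084259 counts each. In the most alike pair of libraries 64.0% of genes had unequal counts, so none was an exact copy of another. Ercc1 itself had 34 to 110 counts in the 12 wild-type libraries and 1 to 15 in the 12 mutant libraries. The summed level of 12 Kupffer cell and macrophage markers was 271 to 319 CPM (counts scaled to a common library size, the deposited counts being raw) in fed wild types, 424 to 576 in old wild types and 538 to 705 in fed mutants at 16 weeks. All 12 were called higher in fed mutants than in fed wild types, and 10 of 12 in old wild types. Over all genes the shares called higher were 5.69% and 4.75%. In fed mutants 3 of 7 stellate cell markers and 2 of 2 tested neutrophil markers were also called higher. So was 1 of 3 tested B and plasma cell markers. In old wild types 3 of 3 tested B and plasma cell and 2 of 2 tested neutrophil markers were called higher. B and plasma cell markers summed to 34.9 to 83.4 CPM there and to 1.40 to 4.23 in fed wild types. In restricted wild types 3 of 7 stellate cell and 2 of 6 endothelial markers were called higher than in fed ones. So were 2 of 12 Kupffer cell and 2 of 3 tested B and plasma cell markers, against 5.44% of all genes. Stellate sums were 309 to 604 CPM in restricted wild types and 203 to 306 in fed ones. In restricted mutants the Kupffer cell sum was 538 to 686 CPM, with 0 of 12 called against fed mutants. There 2 of 6 endothelial markers were called higher, against 5.59% of all genes. The median sum of 9 hepatocyte markers was 157772 CPM in fed, 224651 in restricted and 127240 in old wild types, and 136000 in fed and 188574 in restricted mutants. Albumin took 9.92%, 16.4% and 6.42% of counts in those wild types and 8.89% and 15.5% in those mutants. Of the 9 markers, albumin included, 0 were called higher and 2 lower in fed mutants than in fed wild types. In old wild types 2 were called higher and 1 lower, with a median log2 difference of 0.15. With restriction 2 were called higher and 0 lower in wild types, and 4 higher and 2 lower in mutants. Shares of all genes called lower were, in the same order, 5.04%, 4.59%, 6.71% and 6.04%. T and NK cell markers stayed at or under 1.09 CPM in sum. The part of these markers in the results below was not tested.

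Some libraries stood apart in the sterol genes themselves. Among the 4 old wild types, replicate 1 was the highest for all 18 synthesis enzymes. Among the fed mutants at 7 weeks, replicate 4 was the highest for 16 of 18. Among the fed wild types, replicate 4 was the lowest for 15 of 18. The restricted wild types split. The enzymes' median was 0.90 and 1.36 above the fed wild-type mean (log2) in replicates 1 and 3. It was 0.03 and 0.11 above in replicates 2 and 4. Replicates 1 and 3 had 27084259 and 23991680 counts, and replicates 2 and 4 had 18853705 and 17417171. In fed wild types the enzymes' median was 0.33 and 0.24 in replicates 1 and 3 (25278530 and 25201670 counts). There it was -0.08 and -0.57 in replicates 2 and 4 (17464227 and 13366558 counts). In fed mutants at 16 weeks the highest median, 1.11, was in the library with the fewest counts (16548918). The part of depth was not tested. The fed mutants at 16 weeks were the most alike, at 0.86 to 1.11. The median coefficient of variation over the members was 13.2% there, against 24.6% in fed wild types, 37.5% in restricted wild types and 32.7% in old wild types.

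**Figure D2:**
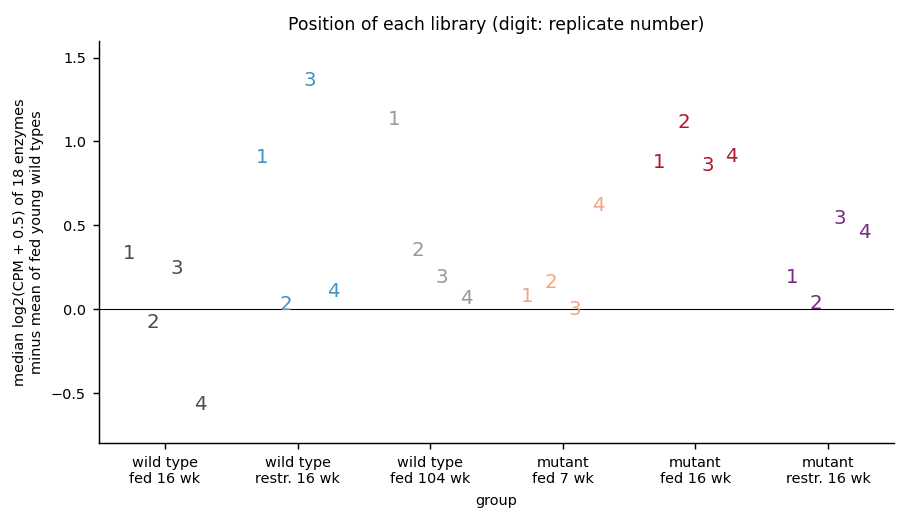
Median over the 18 synthesis enzymes of log2(CPM + 0.5) minus the mean of the fed young wild types (y axis), for each library by group (x axis); digits are replicate numbers. The 4 fed mutants at 16 weeks lie between 0.86 and 1.11, whereas the restricted wild types range from 0.03 to 1.36.

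In fed mutants at 16 weeks, footprints on enzymes of all 3 stages of cholesterol synthesis were higher than in fed wild types. The rise was largest for Sqle, which encodes squalene monooxygenase, a control point of the pathway, and Insig2 was the only one of the 26 tested members called lower. The test called 10 members higher and 1 lower, while 5.69% of all tested genes were called higher and 5.04% lower. The median log2 difference of the members was 0.79, beside 0.01 over all genes, and 22 of 26 estimates were above 0. In 14 members every mutant library lay above every wild-type library, and in 1, Insig2, every one lay below; over all genes these shares were 10.9% and 11.4%.

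In the mevalonate arm, which makes the isoprenoid building blocks, 2 of 7 enzymes rose. Idi1, the isomerase of isopentenyl diphosphate, was measured at 33.7, 15.4, 32.4 and 12.9 CPM in fed wild types and at 84.6, 97.3, 65.9 and 64.3 in fed mutants. The lowest mutant lay well above the highest wild type. The log2 difference was 1.71 ± 0.46 (standard error, n = 4 against 4) with an adjusted p of 0.0194. Mvk, mevalonate kinase, rose from 2.49 ± 0.476 (SD) to 6.81 ± 0.603 CPM, a log2 difference of 1.44 ± 0.42 (adjusted p = 0.0284). Hmgcs1, the cytosolic HMG-CoA synthase, had 115, 68.0, 105 and 53.7 CPM in wild types and 176, 176, 132 and 150 in mutants. Its groups did not overlap either, but it did not pass the test. Mvd, the decarboxylase of the arm, was at 5.86 ± 2.44 and 19.3 ± 3.10 CPM and did not pass (adjusted p = 0.071). Fdps and Pmvk had overlapping groups. Acat2, the cytosolic thiolase of the first step, was at 262 ± 10.3 and 243 ± 37.7 CPM; its near-identical copy Acat3 had 2678 to 7610 counts per library beside 2224 to 6775 for Acat2, so reads may have been divided between them and Acat2 is uncertain here.

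All 3 enzymes from squalene to lanosterol rose. Sqle (chr15:59315092-59331193, GRCm38.p6) had 4.27, 1.16, 4.28 and 1.24 CPM in fed wild types and 56.9, 47.0, 47.9 and 39.3 in fed mutants. Every mutant was many times above every wild type. The difference was 16.6-fold, or 4.05 ± 0.66 on the log2 scale (adjusted p = 0.000467). Fdft1, squalene synthase, rose from 23.6 ± 9.01 to 72.0 ± 9.91 CPM (log2 1.60 ± 0.45, adjusted p = 0.0263), and its span overlaps the gene Ctsb. Lss, which folds the squalene chain into the sterol rings, rose from 25.6 ± 7.36 to 46.1 ± 3.37 CPM (log2 0.85 ± 0.25, adjusted p = 0.028).

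Of the 8 enzymes from lanosterol to cholesterol, 3 rose and none fell. Msmo1, the methylsterol oxidase, had 23.1, 20.8, 28.6 and 17.3 CPM in wild types and 96.1, 90.6, 79.3 and 81.2 in mutants. The groups lay far apart, with little spread inside either. The log2 difference was 1.95 ± 0.39 (3.85-fold, adjusted p = 0.00227). Cyp51, the lanosterol demethylase, rose from 43.4 ± 13.9 to 108 ± 22.6 CPM (log2 1.31 ± 0.29, adjusted p = 0.0045). Hsd17b7, a sterol ketone reductase, rose from 27.3 ± 2.49 to 46.6 ± 4.37 CPM (log2 0.77 ± 0.17, adjusted p = 0.00401). Nsdhl, the dehydrogenase that acts beside them, was at 19.3 ± 8.89 and 34.7 ± 4.73 CPM and did not pass (adjusted p = 0.057). Dhcr7, a final reductase, was at 50.8 ± 13.2 and 94.7 ± 14.9 CPM with no overlap and did not pass. Tm7sf2, Ebp and Sc5d had log2 differences of 0.22, -0.13 and 0.23, none past the test.

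Outside the synthesis chain, Aldoc and Tmem97 rose. Aldoc, the aldolase isoform C of glycolysis, whose promoter holds one of the SREBP motifs printed above, had 5.44, 3.31, 6.40 and 4.30 CPM in fed wild types and 17.9, 21.2, 15.6 and 19.2 in fed mutants. No library came between the groups. The difference was 3.76-fold (log2 1.91 ± 0.20, adjusted p = 2.72e-07), the smallest p among the members. Tmem97, a membrane protein that binds the lysosomal sterol transporter NPC1, rose from 43.2 ± 5.87 to 70.3 ± 6.62 CPM (log2 0.70 ± 0.14, adjusted p = 0.00189). Stard4, a carrier of sterol between membranes, and Soat2, which esterifies cholesterol, were not called, with overlapping groups. The calls of Sqle, Cyp51, Msmo1, Hsd17b7, Insig2, Tmem97 and Aldoc were kept without any 1 of the 8 libraries. Those of Mvk, Fdft1, Lss and Idi1 were lost in 7, 5, 5 and 2 of the 8 fits that left out 1 library, with the largest adjusted p (0.0819, 0.0869, 0.103 and 0.0684) in each case without fed wild-type replicate 4.

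**Figure D3:**
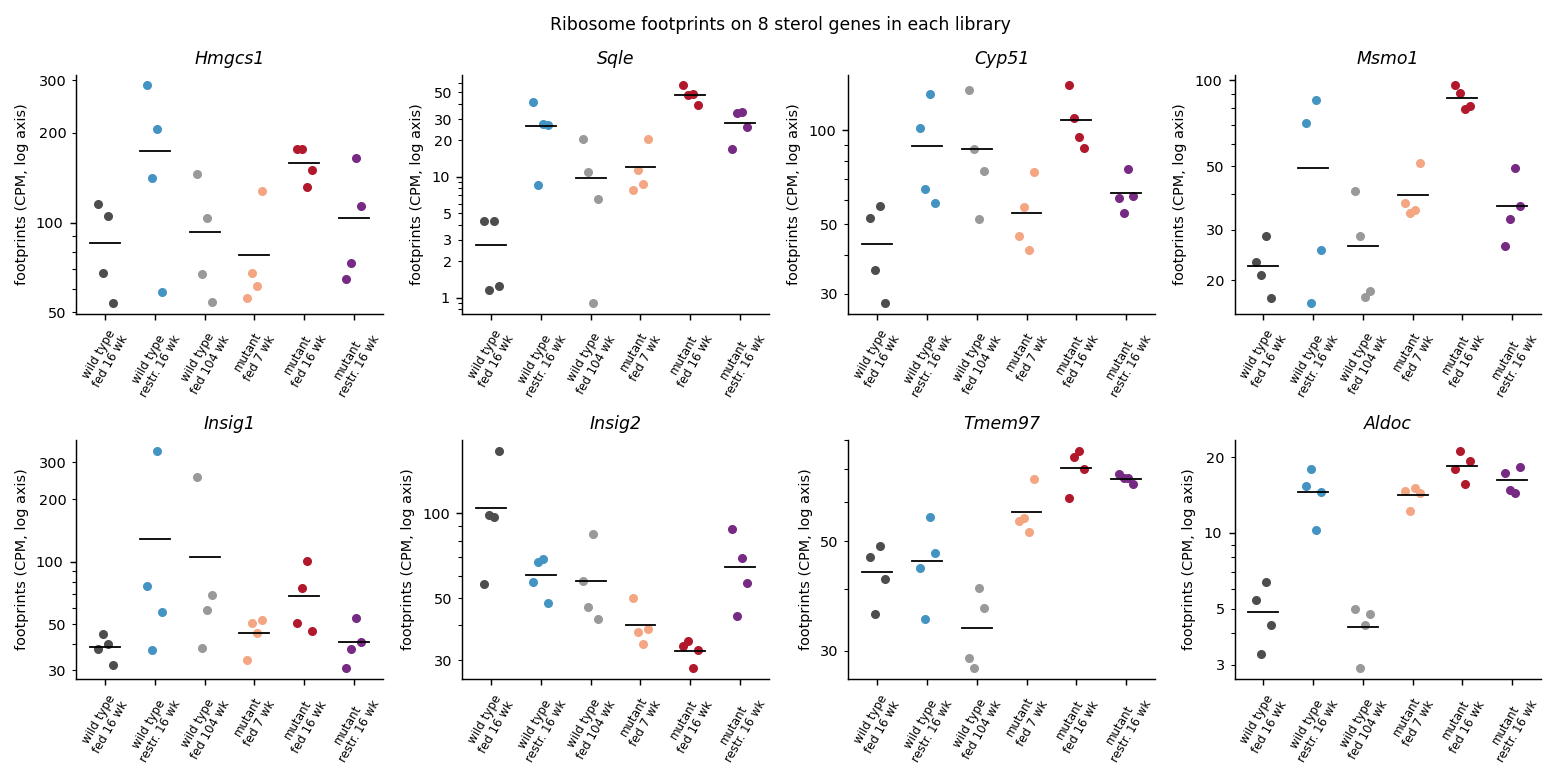
Footprints in CPM (log axis) on 8 members in each of the 24 libraries, by group; points are libraries and bars are group means. In fed mutants at 16 weeks Sqle lies between 39.3 and 56.9 CPM and in fed wild types between 1.16 and 4.28, while Insig2 runs the other way.

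SREBP2 and its membrane partners did not move as one. Srebf2 had 23.5, 38.4, 25.1 and 29.5 CPM in fed wild types and 33.8, 42.6, 40.9 and 42.7 in fed mutants at 16 weeks. The groups overlapped through wild-type replicate 2. The log2 difference was 0.46 ± 0.18 (adjusted p = 0.112); without that library it was 0.64 with an adjusted p of 0.0384. Scap was level, at 21.0 ± 1.65 and 18.5 ± 1.98 CPM (adjusted p = 0.483). Insig1 had 38.2, 44.7, 40.4 and 31.7 CPM in fed wild types and 50.9, 74.6, 101 and 46.4 in fed mutants. The mutants were all above the wild types but unequal among themselves, and the difference did not pass (log2 0.82 ± 0.59, adjusted p = 0.433). Insig2 had 56.1, 98.6, 97.1 and 167 CPM in fed wild types and 33.8, 35.2, 28.1 and 32.7 in fed mutants. All mutants lay below all wild types, and the level was 3.23-fold lower (log2 -1.69 ± 0.26, adjusted p = 0.000127). Wild-type replicate 4, the lowest of its group for 15 of the 18 enzymes, was the highest for Insig2.

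In fed mutants 17 of the 18 enzymes, all but Acat2, were higher in estimate at 16 weeks than at 7 weeks, but no member passed the test. This comparison called few genes at all, 0.434% of those tested. Unadjusted p was under 0.05 in 13 of 26 members, all 13 higher at 16 weeks, against 9.57% of all genes. In 11 members every library at 16 weeks lay above every library at 7 weeks, and in none below; over all genes the shares were 4.98% and 5.69%. Sqle had 7.73, 11.4, 8.66 and 20.5 CPM at 7 weeks, so that the 7-week mutants already lay above the fed wild types at 16 weeks and below the mutants of that age. Aldoc likewise had 14.7, 12.2, 15.1 and 14.5 CPM at 7 weeks. No wild types of 7 weeks were among the groups, and age and genotype cannot be told apart in those 2 observations. Msmo1 was at 39.6 ± 8.08 CPM at 7 weeks and 86.8 ± 7.93 at 16 weeks. Srebf2 had 19.5, 22.1, 22.8 and 30.2 CPM at 7 weeks, all below the mutants at 16 weeks (log2 0.76 ± 0.18, adjusted p = 0.0587). Insig2 had 49.9, 37.8, 34.2 and 38.7 CPM at 7 weeks (log2 -0.31 ± 0.26, adjusted p = 0.787). Insig1 and Scap were within the spread (adjusted p = 0.832 and 0.831). The count of calls depended on the tool: DESeq2 called 2 members, Srebf2 and Cyp51, and a fit on these 8 libraries alone called 10. Without 7-week replicate 4, edgeR called Srebf2 (adjusted p = 0.0368).

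Old wild types had a median log2 difference of 0.43 over the members, beside 0.01 over all genes, with 20 of 26 estimates above 0. Unadjusted p was under 0.05 in 10 of 26 members, against 23.2% of all genes. The test called 3 members higher than in young fed wild types, Stard4, Soat2 and Cyp51, and 1 lower, Insig2; 4.75% of all genes were called higher, 4.59% lower and 9.34% in either direction. Soat2, which makes cholesterol esters, had 19.7, 15.0, 16.8 and 11 CPM in young and 26.6, 27.6, 28.2 and 30.6 in old mice. The old livers were alike and all above the young ones, with a log2 difference of 0.85 ± 0.20 (adjusted p = 0.00789). Stard4 had 27.1, 21.8, 31.5 and 20.4 CPM in young and 76.7, 39.5, 36.6 and 39.6 in old mice (log2 0.93 ± 0.22, adjusted p = 0.00781). Soat2 and Stard4 were the 2 members without overlap, with none lower (8.64% and 8.98% over all genes). Cyp51 had 135, 87.3, 51.9 and 74.3 CPM in old mice, overlapping with the young (log2 1.00 ± 0.29, adjusted p = 0.0283). Insig2 had 57.3, 46.6, 84.4 and 41.9 CPM (log2 -0.86 ± 0.26, adjusted p = 0.0355). Insig1 had 255, 38.5, 58.3 and 68.8 CPM in old mice, with 1 library far above the other 3, and did not pass (log2 1.44 ± 0.60, adjusted p = 0.145). Neither Srebf2 (24 ± 3.70 CPM, adjusted p = 0.395) nor Scap (22.5 ± 1.19 CPM, adjusted p = 0.738) passed. The call of Soat2 was kept without any 1 library. Stard4 was lost without old replicate 1 (adjusted p = 0.0553), Cyp51 in 4 of 8 fits (up to 0.129, without old replicate 1) and Insig2 in 6 of 8 (up to 0.180, without young replicate 4).

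Fed mutants and old wild types were also compared directly. Of the members, 6 were higher in fed mutants, Aldoc, Tmem97, Msmo1, Hsd17b7, Srebf2 and Sqle, and 3 were lower (6.42% and 6.31% over all genes, 12.7% in either direction). Every mutant library lay above every old library in 9 members and below in 5 (9.56% and 9.64% over all genes). Aldoc had 4.99, 2.90, 4.30 and 4.77 CPM in old wild types, within or just under the young range of 3.31 to 6.40, and 15.6 to 21.2 in fed mutants (log2 2.12 ± 0.20, adjusted p = 1.06e-07). Tmem97 had 29.0, 27.6, 40.3 and 36.7 CPM in old wild types and 61.1 to 76.2 in fed mutants (log2 1.07 ± 0.15, adjusted p = 1.35e-05). Neither gene had overlapping groups. Msmo1 (log2 1.72 ± 0.38, adjusted p = 0.0048), Hsd17b7 (0.73 ± 0.17, 0.00487) and Sqle (2.29 ± 0.61, 0.0163) were higher in mutants as well. Srebf2 was higher in mutants here, at 40.0 ± 4.21 against 24 ± 3.70 CPM (log2 0.74 ± 0.19, adjusted p = 0.00852). Stard4 (log2 -0.80 ± 0.22, adjusted p = 0.0151), Soat2 (-0.73 ± 0.20, 0.0156) and Insig2 (-0.83 ± 0.26, 0.0367) were lower in mutants. Scap (adjusted p = 0.216) and Insig1 (0.553) did not pass. Stard4 was lost without old replicate 1 or fed mutant replicate 4 (up to 0.115) and Soat2 without fed mutant replicate 4 (0.0592). Insig2 was lost in 6 of 8 fits (up to 0.168, without old replicate 3). Sqle kept its call without any 1 library (adjusted p up to 0.0497, without old replicate 4). In a fit on the compared groups alone it lost the call (adjusted p = 0.0933).

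**Figure D4:**
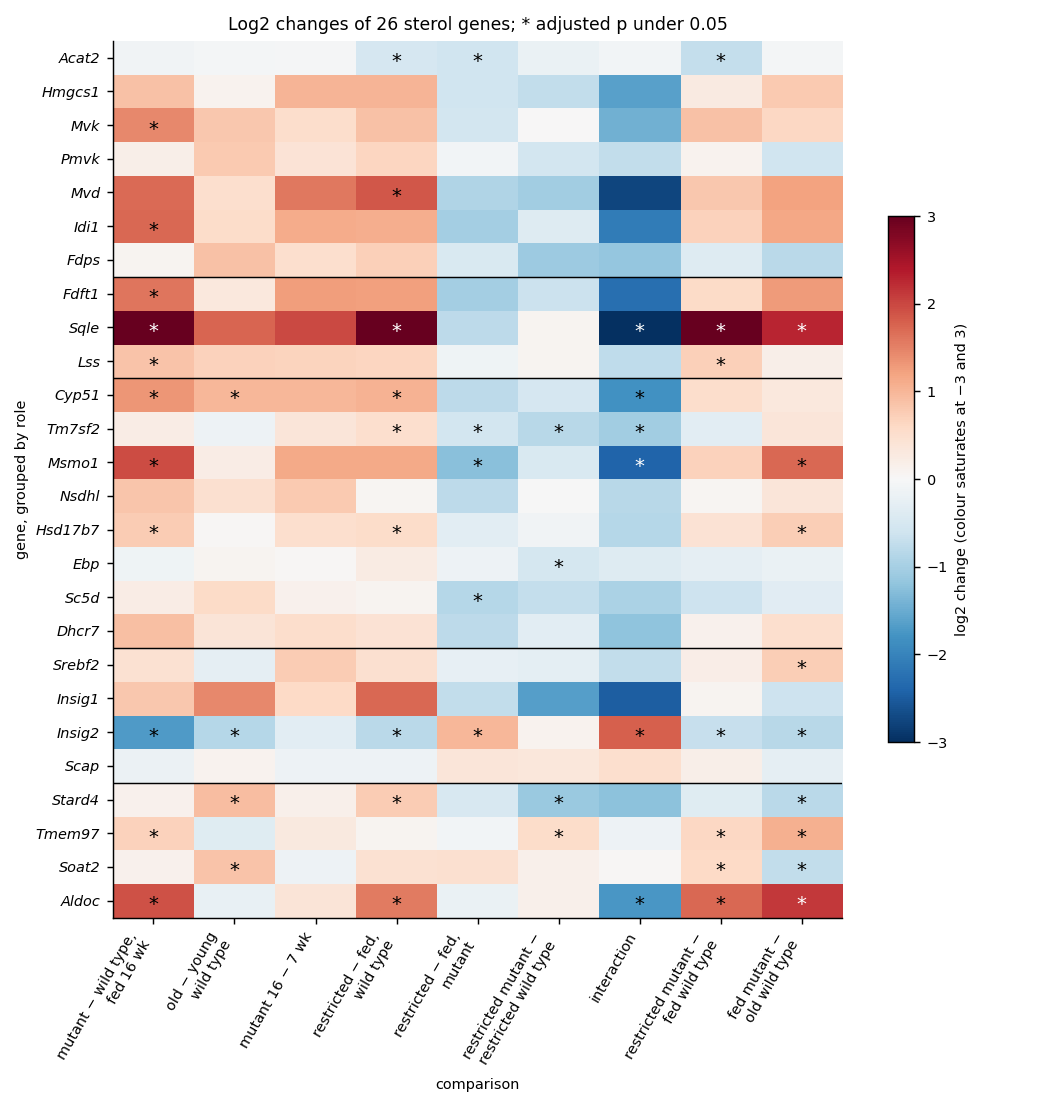
Log2 differences (colour, red higher and blue lower, saturated at -3 and 3) of the 26 tested members (rows, grouped by role) in 9 comparisons (columns); asterisks mark an adjusted p under 0.05. The column of fed mutants against fed wild types is mostly red, with Sqle at 4.05 and Insig2 at -1.69, and the interaction column is mostly blue.

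In restricted wild types, footprints on 7 members were called higher than in fed wild types and on 2 lower, where 5.44% of all genes were called higher and 6.71% lower, and the members' median was 0.65 on the log2 scale beside 0.02 over all genes. Aldoc had 15.3, 17.9, 10.3 and 14.5 CPM in restricted wild types, all above the fed range of 3.31 to 6.40 (log2 1.56 ± 0.20, adjusted p = 5.37e-06). Sqle had 41.4, 8.60, 27.4 and 26.7 CPM, also all above the fed range of 1.16 to 4.28 (9.06-fold, log2 3.18 ± 0.65, adjusted p = 0.00307). Stard4 was even among the restricted wild types, at 44.6, 41.9, 44.0 and 40.3 CPM (log2 0.76 ± 0.22, adjusted p = 0.0225). Cyp51 rose as well, with no overlap (log2 1.04 ± 0.29, adjusted p = 0.0193). These 4 members were the ones wholly above the fed libraries (6.35% over all genes), and Acat2 was the 1 wholly below (8.25%). Mvd (log2 1.86 ± 0.59, adjusted p = 0.044), Tm7sf2, a sterol reductase (0.51 ± 0.16, 0.0368), and Hsd17b7 (0.54 ± 0.17, 0.0376) rose with overlap.

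Acat2 (log2 -0.51 ± 0.17, adjusted p = 0.0436) and Insig2 (-0.80 ± 0.26, 0.0435) fell in restricted wild types. Insig1 had 76.5, 37.7, 341 and 57.1 CPM there; replicate 3 was many times higher than the others, and the difference did not pass (log2 1.73 ± 0.60, adjusted p = 0.0674). Srebf2 had 49.8, 29.1, 50.8 and 33.8 CPM and did not pass (log2 0.49 ± 0.18, adjusted p = 0.0791), nor did Scap (adjusted p = 0.526). Srebf2 passed without fed replicate 2 (0.0239) or restricted replicate 2 (0.0219), and Insig1 passed with DESeq2 (0.0232) or without restricted replicate 2 (0.0262). Hmgcs1 shows the split among these mice, with 289, 141, 207 and 58.6 CPM. Replicates 1 and 3 were the highest for Hmgcs1, Mvd, Idi1, Fdft1 and Msmo1, while the lowest restricted library did not exceed the fed range for any of them. Only Sqle and Aldoc kept their call without any 1 of the 8 libraries. Insig2 and Acat2 were each lost in 7 of 8 fits (up to 0.215 without fed replicate 4 and 0.227 without restricted replicate 4). Mvd was lost in 6 (up to 0.246, without restricted replicate 3), and Tm7sf2 and Hsd17b7 were lost in 5 each (up to 0.115 without restricted replicate 4 and 0.128 without restricted replicate 1). Cyp51 was lost without fed replicates 2 or 4 or restricted replicate 3 (up to 0.0679) and Stard4 without fed replicates 2 or 4 (up to 0.0763).

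In restricted mutants, 1 member was called higher than in fed mutants, Insig2, and 4 lower, Acat2, Tm7sf2, Msmo1 and Sc5d, where 5.59% of all genes were called higher and 6.04% lower. The members' median was -0.54, beside 0.00 over all genes, and 23 of 26 estimates were below 0. Msmo1 had 26.4, 32.8, 49.5 and 36.5 CPM in restricted mutants, all under the fed mutant range of 79.3 to 96.1 (log2 -1.26 ± 0.38, adjusted p = 0.0343). Sc5d, a sterol desaturase, had 98.6, 79.8, 182 and 179.5 CPM against 243, 256, 235 and 242 in fed mutants (log2 -0.86 ± 0.27, adjusted p = 0.0404). Restricted replicates 1 and 2 were far lower than the other pair. Tm7sf2 (log2 -0.54 ± 0.16, adjusted p = 0.0268) and Acat2 (-0.60 ± 0.17, 0.0202) fell too. Tm7sf2 overlaps the gene Vps51. In 9 members all restricted mutants lay below all fed mutants (9.03% over all genes), Sqle, Cyp51, Idi1, Fdft1, Dhcr7 and Nsdhl among them, and in 1, Insig2, all lay above (8.43%).

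Insig2 had 87.9, 43.3, 69.5 and 56.4 CPM in restricted mutants, all above the 28.1 to 35.2 of fed mutants (log2 0.99 ± 0.26, adjusted p = 0.0142). Its partner gene Insig1 did not pass (log2 -0.74 ± 0.59, adjusted p = 0.475), and neither did Srebf2 (-0.25 ± 0.18, 0.419) or Scap (0.35 ± 0.14, 0.107). Scap had 30.1, 27, 18 and 19.5 CPM in restricted mutants, and without replicate 3 its adjusted p was 0.0279. None of the 5 calls was kept without each library in turn. Insig2 was lost without restricted mutant replicate 1 alone (adjusted p = 0.0663). Acat2 and Tm7sf2 were lost in 4 of 8 fits (up to 0.0898 without restricted replicate 1 and 0.0954 without restricted replicate 4), Sc5d in 6 and Msmo1 in 7 (up to 0.134 and 0.113, both without restricted replicate 1).

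The responses of the genotypes were compared by the interaction term, the log2 response of mutants minus that of wild types. The test called 6 members, 1 higher and 5 lower, where 0.516% of all genes were called higher and 0.287% lower. The members' median was -1.11, beside -0.02 over all genes, and unadjusted p was under 0.05 in 21 of 26, against 12.7% of all genes. For 22 of 26 members the estimate was above 0 in wild types and below 0 in mutants. Insig2 and Scap ran the opposite way, and Acat2 and Soat2 had the same sign in both. Over all genes 51.7% of estimates were above 0 in wild types and 50.2% in mutants. The share of all genes with opposite signs was not computed. The interaction was -3.96 ± 0.86 for Sqle (adjusted p = 0.0316), -2.40 ± 0.54 for Msmo1 (0.0339), -1.81 ± 0.40 for Cyp51 (0.0308), -1.75 ± 0.27 for Aldoc (0.00146) and -1.05 ± 0.23 for Tm7sf2 (0.0205). For Insig2 it was 1.78 ± 0.37 (adjusted p = 0.0163). Insig1 (-2.47 ± 0.84, adjusted p = 0.187), Srebf2 (adjusted p = 0.184) and Scap (0.254) did not pass.

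The group levels behind these terms were as follows. Sqle was at 2.74 ± 1.77 CPM in fed wild types and 26 ± 13.4 in restricted ones, and at 47.8 ± 7.20 in fed mutants and 27.7 ± 8.13 in restricted ones. The means of the restricted groups lay close together, above that of the fed wild types and below that of the fed mutants. Restricted wild types (8.60 to 41.4 CPM) overlapped with fed mutants (39.3 to 56.9). Aldoc rose in wild types to 14.5 ± 3.14 CPM and was at 18.5 ± 2.33 and 16.2 ± 1.88 CPM in fed and restricted mutants. Insig2 was at 105 ± 46.1 CPM in fed and 60.2 ± 9.64 in restricted wild types, and at 32.4 ± 3.08 in fed and 64.3 ± 19.1 CPM in restricted mutants. Insig2 and Aldoc kept the interaction call without any 1 of the 16 libraries. Tm7sf2 was lost without fed wild-type replicate 3 (adjusted p = 0.0524), and Sqle, Cyp51 and Msmo1 were lost in 9, 8 and 11 of 16 fits. Their largest adjusted p was 0.0803 and 0.0875 without restricted mutant replicate 1 for Sqle and Msmo1, and 0.0793 without fed mutant replicate 1 for Cyp51.

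**Figure D5:**
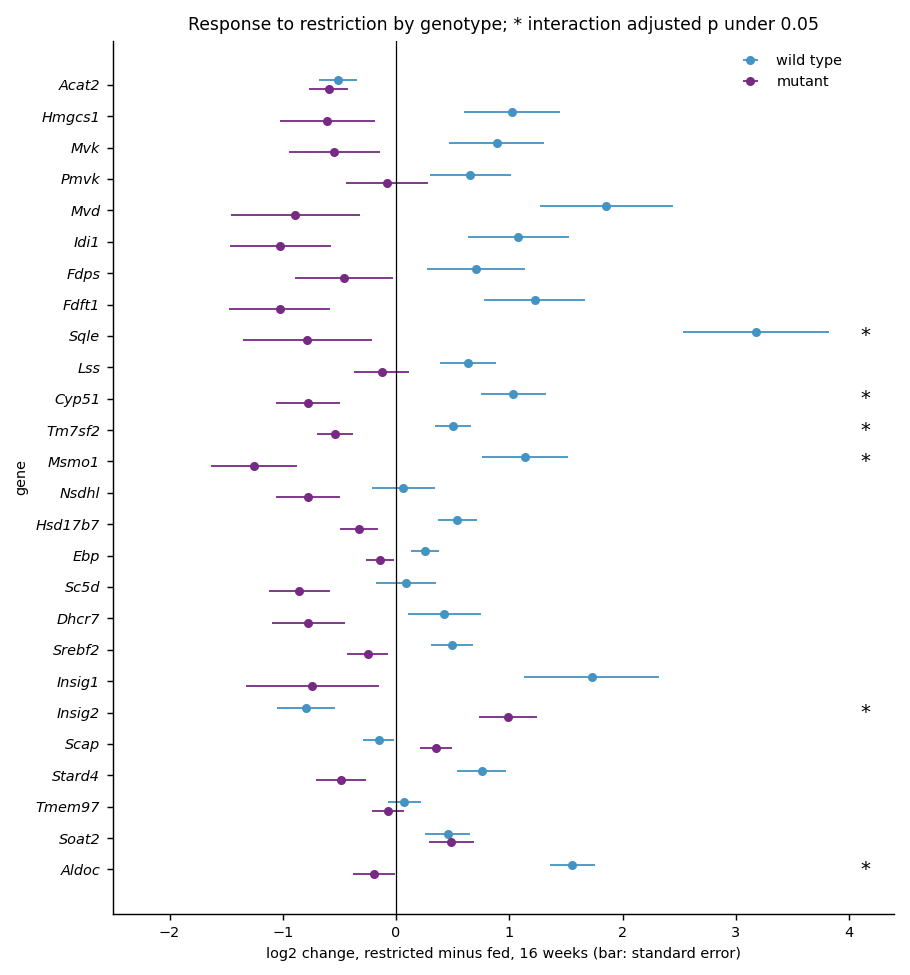
Log2 change with restriction at 16 weeks (x axis, with standard error bars) for each of the 26 tested members (y axis) in wild types (blue) and mutants (purple); asterisks mark an interaction with an adjusted p under 0.05. For 22 members the wild-type estimate is above 0 and the mutant estimate below 0, and Insig2 is reversed.

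Between the restricted groups 4 of 26 members (15.4%) were called, 1 higher and 3 lower in mutants. Over all genes 9.38% were called higher, 8.85% lower and 18.2% in either direction. Stard4 had 13.9, 13.5, 25.7 and 25.8 CPM in restricted mutants, all below the 40.3 to 44.6 of restricted wild types (log2 -1.11 ± 0.22, adjusted p = 0.000826). Tm7sf2 was lower without overlap too (log2 -0.83 ± 0.16, adjusted p = 0.000648), and Ebp, a sterol isomerase, was lower with overlap (-0.52 ± 0.13, 0.00521). Tmem97 was higher, at 68.3, 67.0, 67.1 and 65.4 CPM against 44.1, 34.7, 56.0 and 47.2 (log2 0.56 ± 0.14, adjusted p = 0.00769). The non-overlapping members were thus 1 higher and 2 lower (8.31% and 6.87% over all genes). All 4 calls were kept without any 1 library. In a fit on the compared groups alone, Ebp (adjusted p = 0.0971) and Tmem97 (0.0763) lost their calls. Insig2 did not differ beyond its error (log2 0.10 ± 0.26, adjusted p = 0.84), and Insig1 (-1.65 ± 0.60, 0.0622), Scap (0.101) and Srebf2 (0.297) did not pass. Insig1 passed with DESeq2 (adjusted p = 0.0256) and in edgeR without restricted wild-type replicate 2 (0.0274) or 4 (0.0419); Scap passed without restricted mutant replicate 3 (0.0297).

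Against fed wild types, restricted mutants had 7 of 26 members called (26.9%), 5 higher and 2 lower. Over all genes 14.1% were called higher, 14.3% lower and 28.4% in either direction, so the members' share was close to that of all genes. Aldoc (log2 1.72 ± 0.20, adjusted p = 5.13e-07), Sqle (3.27 ± 0.65, 0.00102) and Tmem97 (0.63 ± 0.14, 0.00192) were higher, as in fed mutants. Soat2 (0.61 ± 0.20, 0.0241) and Lss (0.72 ± 0.25, 0.0315) were higher, and Acat2 (-0.71 ± 0.17, 0.00277) and Insig2 (-0.70 ± 0.26, 0.0435) were lower. Scap (0.365), Srebf2 (0.419) and Insig1 (0.938) did not pass. Msmo1, at 36.3 ± 9.76 CPM in restricted mutants, and Cyp51, at 63.0 ± 8.84, did not pass. Groups did not overlap in 6 members that were higher and 3 that were lower (15.4% and 16.1%). The calls of Lss and Soat2 were lost in 3 of 8 fits each (up to 0.132 without restricted mutant replicate 1 and 0.0961 without fed wild-type replicate 4), and that of Insig2 in 6 of 8 (up to 0.241, without fed wild-type replicate 4).

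Npc1l1, which takes up sterol from bile and gut content, had few counts in these libraries. There were 0 counts in all 12 wild-type libraries, 1 count in 1 library of each fed mutant group, and 1, 1, 14 and 3 counts in the restricted mutants. It was not tested.

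Lists of neighbouring pathways were counted in the same way, and their counts read against the same shares of all genes. These were 5.69% higher and 5.04% lower in fed mutants, 4.75% and 4.59% in old wild types, 5.44% and 6.71% in restricted wild types, and 5.59% and 6.04% in restricted mutants. Of 10 other genes of SREBP processing and turnover, 1 rose and 1 fell in restricted wild types. Rnf139, a ubiquitin ligase of the endoplasmic reticulum membrane, rose (log2 0.44 ± 0.14, adjusted p = 0.0385) and Vcp, an ATPase that extracts proteins from that membrane, fell (-0.69 ± 0.15, 0.00285). In restricted mutants 1 of the 10 rose, again Rnf139 (0.60 ± 0.14, 0.00549), and 0 fell.

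Of 8 genes of sterol efflux and its control, 2 were higher and 1 lower in fed mutants than in fed wild types. The efflux pumps Abcg1 (log2 0.85 ± 0.14, adjusted p = 0.000219) and Abcg5 (0.80 ± 0.22, 0.0208) were higher, and Nr1h2, a sterol-sensing receptor, was lower (-0.67 ± 0.21, 0.034). In old wild types 2 were higher, Abcg8 (1.02 ± 0.30, 0.0343) and Abcg5 (0.71 ± 0.22, 0.0445), and 1 lower, Nceh1 (-0.89 ± 0.25, 0.0244). Abcg5, which exports sterol into bile, was the 1 gene of this list that fell in restricted wild types (-0.74 ± 0.22, 0.0311), and 0 rose. It was also the 1 gene with an interaction, 1.29 ± 0.31 (adjusted p = 0.0494). Over all genes the interaction was called above 0 in 0.516% and below 0 in 0.287%. Between restricted groups 3 were higher and 1 lower in mutants, where 9.38% of all genes were called higher and 8.85% lower. There Abcg5 was 2.09 ± 0.23 higher (adjusted p = 8.2e-07).

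Of 13 genes of fatty acid synthesis and SREBP1, the sister factor, 0 were higher and 4 lower in fed mutants, and 9 did not pass. The first 3 by p were Scd1 (log2 -3.36 ± 0.44, adjusted p = 3.1e-05), Elovl5 (-1.52 ± 0.23, 8.73e-05) and Acacb (-2.33 ± 0.36, 0.000172), and the median of the list was -0.76. In restricted mutants 1 of 13 rose and 0 fell. It was Scd1, a desaturase of fatty acids (1.61 ± 0.41, 0.013), whose interaction was 2.75 ± 0.57 (adjusted p = 0.0226).

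Of 10 enzymes from sterol to bile acid, 2 rose and 1 fell in restricted wild types, and 3 rose and 1 fell in restricted mutants. Cyp39a1, an oxysterol hydroxylase, rose by 2.99 ± 0.25 in wild types and 3.04 ± 0.25 in mutants (adjusted p = 1.68e-08 and 7.75e-09), while Cyp7b1, another, fell by 2.14 ± 0.33 and 2.93 ± 0.34 (0.000212 and 6.69e-06). In old wild types 1 was higher, Cyp7b1 (1.72 ± 0.33, 0.00193), and 3 were lower, Akr1d1 (-1.03 ± 0.17, 0.000202) and Cyp8b1 (-2.40 ± 0.43, 0.00138) among them.

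Of 12 genes of sterol transport and esters, 2 rose and 1 fell in restricted wild types. Npc2 (log2 0.66 ± 0.14, adjusted p = 0.00265), a carrier of lysosomal sterol, and Scarb1 (0.57 ± 0.14, 0.00785), a lipoprotein receptor, rose, and Osbpl9 fell (-0.58 ± 0.17, 0.0236). In fed mutants 2 of the 12 were higher, Soat1 (0.83 ± 0.23, 0.0223) and Gramd1c (1.01 ± 0.32, 0.0412), and 1 was lower, Lipa (-0.72 ± 0.17, 0.00576). Of 11 genes of the isoprenoid branches, 1 was higher and 0 lower in fed mutants, Pdss1 (0.90 ± 0.24, 0.0164), which makes the tail of coenzyme Q. In restricted wild types 0 rose and 2 fell, Fntb (-1.14 ± 0.27, 0.00562) and Coq2 (-0.66 ± 0.15, 0.00595).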

How the data were processed

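The deposited values are raw footprint counts, whole numbers for each gene in each liver, and members were found by symbol. The build was GRCm38.p6; the submitters' processing notes name Bowtie2 2.4.2, cutadapt 3.4, Subread 1.6.4 with featureCounts, Trimmomatic 0.39, and STAR in versions 2.7.8a and 2.7.0f. Which tool made the counts, and how strand and reads of several genes were treated, is not given in the sources used here. A deposited table of P-site counts per open reading frame names no genes and was not used.

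Genes were kept by filterByExpr, scaled by TMM and fitted in edgeR 4.0.16 (R 4.3.3; robust quasi-likelihood, 24 libraries, 1 term per group, 18 residual degrees of freedom). The biological coefficient of variation was 24.2%. The 9 contrasts were tested 2-sided, with Benjamini-Hochberg adjustment over 12211 genes and a threshold of 0.05. A standard error is the size of the log2 change divided by the square root of F. The fit was tested on simulated data. P-values set a group difference against the spread between mice, estimated from all 6 groups together with information shared across genes. Alternatives were DESeq2 1.42.0, other scaling, no filter, the compared groups alone, a replicate block and each library left out. All members were followed, and up to 3 genes of each other list were available per comparison; members and lists were chosen with earlier results of these data known. Levels were not compared between genes.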

Additional observations from a re-analysis of the deposited data

Results flagged for a closer look

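In 20 of 156 groups of 4 libraries (12.8%) a member had 1 library far from the other 3; about 1 group in 20 is picked by chance. Most came from a few libraries. Fed mutant replicate 4 at 7 weeks was the highest for Hmgcs1 (127.7 CPM), Fdps (23.7), Fdft1 (45.8), Lss (37.3), Hsd17b7 (39.0), Dhcr7 (93.6) and Stard4 (27.1), and replicate 2 of that group was the lowest for Acat2 (219.8). Old wild-type replicate 1 was the highest for Mvd (15.2 CPM), Fdft1 (49.6), Ebp (209), Sc5d (485), Insig1 (255) and Stard4 (76.7). Restricted mutant replicate 1 was the highest for Fdps (23.6 CPM), Lss (59.1) and Ebp (155). Restricted wild-type replicate 3 was the highest for Sc5d (352 CPM) and Insig1 (341), and fed mutant replicate 2 at 16 weeks for Fdft1 (86.7). What set these libraries apart was not tested.

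The response to restriction differed between mutants and wild types by the interaction test in 6 members, on the log2 scale: Sqle (-3.96), Msmo1 (-2.40), Cyp51 (-1.81), Aldoc (-1.75), Tm7sf2 (-1.05) and Insig2 (1.78).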

How the results depend on the processing

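Of 1234 values computed under alternatives for members described with statistics, 1036 kept their direction and side of the threshold, 177 lost the call, 16 gained it and 5 reversed. The reversed values belong to 3 differences that were not called. Insig2 between restricted groups ranged from -0.10 (without mutant replicate 1) to 0.23 with 1 library left out, and was -0.014 without wild-type replicate 4. Insig1 between restricted mutants and fed wild types ranged from -0.078 (without mutant replicate 3) to 0.20, and was -0.0090 without wild-type replicate 4. Insig1 between fed mutants and old wild types ranged from -0.89 to 0.31, the latter without old replicate 1. The number of members called moved as follows, and the cause was not tested. DESeq2 called 2 in mutants at 16 against 7 weeks, 14 in restricted wild types, 7 between restricted groups and 11 in the interaction. Without a filter the counts were 2 in old wild types, 1 in mutants at 16 against 7 weeks, 3 in restricted mutants and 3 in the interaction. On the compared groups alone they were 10 in mutants at 16 against 7 weeks, 3 in restricted wild types, 10 in restricted mutants and 2 between restricted groups. With 1 library left out they ranged from 7 to 12 in fed mutants, 1 to 5 in old wild types, 0 to 1 in mutants at 16 against 7 weeks, 2 to 12 in restricted wild types and 1 to 6 in restricted mutants. They ranged from 4 to 6 between restricted groups, 3 to 9 in the interaction, 4 to 7 in restricted mutants against fed wild types and 6 to 9 in fed mutants against old wild types. No label says that replicate numbers pair mice across groups. Same-numbered libraries of different groups had a median correlation of 0.0063 over 60 pairs (-0.19 to 0.25). Differently numbered ones had -0.0015 over 180 pairs (-0.22 to 0.30). No pairing was seen, though such correlations cannot show that there was none. With a replicate block the counts were 12 in fed mutants, 3 in old wild types, 0 in mutants at 16 against 7 weeks, 6 in restricted wild types, 5 in restricted mutants, 4 between restricted groups, 5 in the interaction, 7 in restricted mutants against fed wild types and 8 in fed mutants against old wild types.

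Over all genes, fits on the compared groups alone changed the calls from 1310 to 2138 in fed mutants, from 53 to 436 in mutants at 16 against 7 weeks, from 1483 to 658 in restricted wild types and from 2227 to 769 between restricted groups. DESeq2 changed them from 53 to 167 and, in the interaction, from 98 to 279. With 1 library left out they fell to 868 (wild-type replicate 4) and 806 (mutant replicate 1) in fed mutants, 755 (young replicate 4) in old wild types, 941 (restricted replicate 4) in restricted wild types and 934 (restricted replicate 1) in restricted mutants. In mutants at 16 against 7 weeks they fell to as few as 17 (7-week replicate 3), and in the interaction they ranged from 61 (fed wild-type replicate 3) to 205 (restricted wild-type replicate 1). Depth limits Sqle, Mvk, Mvd and Npc1l1 most, with as few as 13, 16, 35 and 0 counts in a library.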
